A study of Mus musculus with 13 samples.

Results

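The integrin and laminin genes are the protein-coding genes of mm10 whose symbols begin with Itga or Itgb and end in a number or in d, e, l, m, v, x or 2b, or begin with Lama, Lamb or Lamc and end in a number. The rule found 37 of 21951 coding genes in the annotation, of which 26 encode integrin chains and 11 encode laminin chains. Integrins are receptors of paired alpha and beta chains that span the plasma membrane and tie the cytoskeleton to the matrix outside the cell. Laminins are trimers of an alpha, a beta and a gamma chain, and they form the first sheet of a basement membrane. Melanocytes rest on the basement membrane of the epidermis, and a melanoma cell must detach from it, cross it and grip other matrices to spread.

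H3K27ac ChIP-seq peak lists of 9 melanoma cell lines, each established from a tumour of a transgenic mouse on a C57BL/6J background, were examined at these genes. H3K27ac is acetylation of histone H3 at a lysine found at active promoters and enhancers. All lines came from mice that carried Tyr::NRAS Q61K, an oncogenic NRAS driven by the promoter of the tyrosinase gene. These mice were heterozygous for Cdkn2a (Cdkn2a +/-) and had floxed Cdh1 (Cdh1 F/F), the E-cadherin gene. The sample titles do not give the Cdkn2a status of the lines themselves. The mice of the ΔEcad lines also carried Tyr::CreA, a Cre driven by the same melanocyte-lineage promoter, which deletes Cdh1. The male mice gave Ma_1007 and Ma_1181 (both Ecad) and Ma_1062 and Ma_1456 (both ΔEcad). The female mice gave Ma_1014 and Ma_1039 (both Ecad) and the 3 ΔEcad lines Ma_1057, Ma_1064 and Ma_1069. Each line gave 1 list, so a group is 2 or 3 lines, each with its own history in culture, and a difference between groups cannot be told apart from a difference between these lines. The methods state that lines were grown in normal medium, and the sample titles name no treatment.

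The lists held between 20741 peaks (Ma_1069) and 41663 peaks (Ma_1007), and the read depth behind them is unknown. Of 7 melanocyte markers, 6 or 7 had a called promoter in every list. Leukocyte, endothelial and fibroblast markers had a called promoter only in Ma_1007, with Spi1, Tek and Pdgfra each alone in its list of markers. No platelet marker was called, Krt10 was the only called keratinocyte marker (5 lists), and 3 of 4 Schwann cell markers were called in all 9 lists. A gene counted as having a called promoter in a list if any of its annotated transcripts started no more than 1 kb from a peak. By that rule 5 of the 37 genes were called in all 9 lists, 13 in 1 to 8 lists and 19 in none. Over all coding genes the same classes held 21.1%, 31.8% and 47.1% of genes, against 13.5%, 35.1% and 51.4% here, and the median gene was called in 1 list against 0 lists for integrin and laminin genes.

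**Figure D1:**
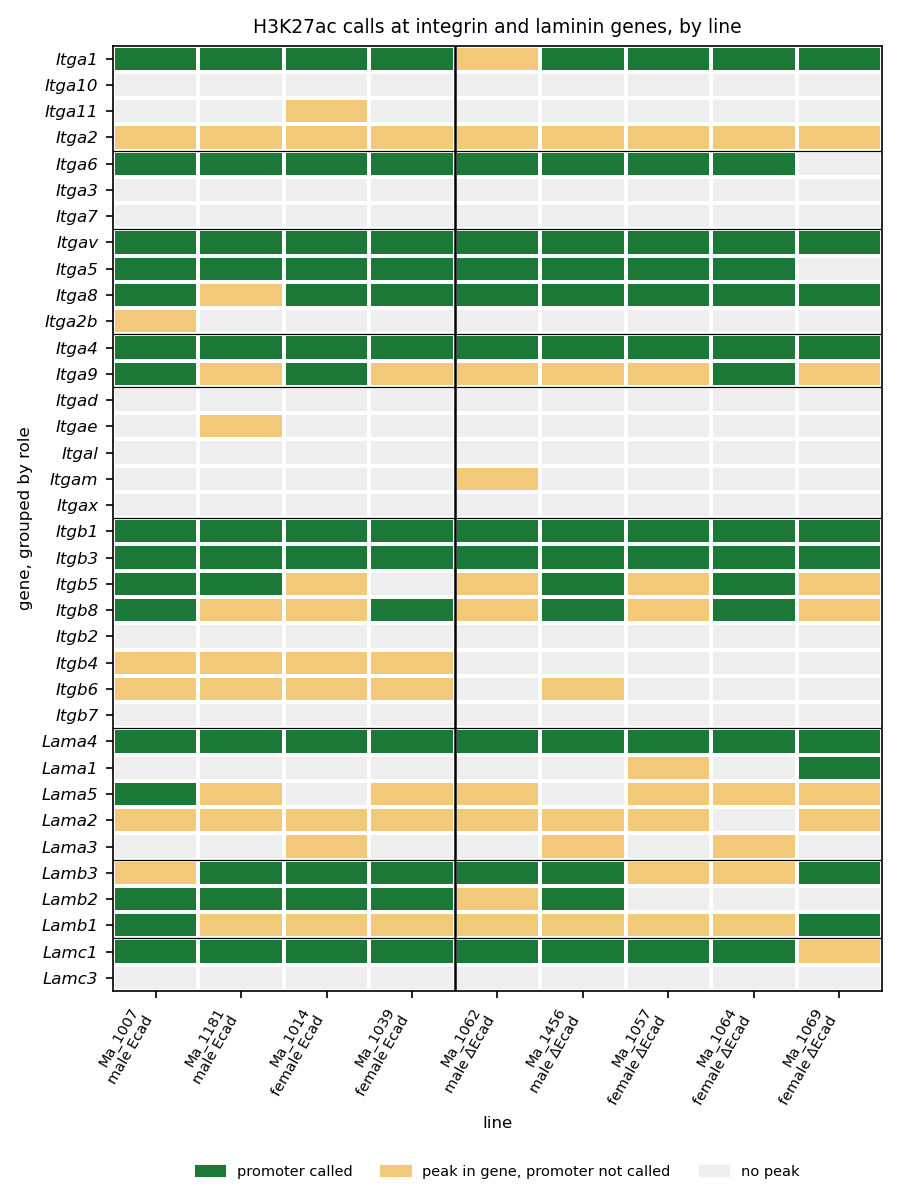
Promoter calls (green), peaks elsewhere in the gene (ochre) and absence of any peak (grey) for integrin and laminin genes (rows, grouped by role) in the 9 lists (columns, with the vertical line between Ecad and ΔEcad). Itga4, Itgav, Itgb1, Itgb3 and Lama4 are green in all 9 columns, whereas the leukocyte alpha chains and Itgb2 and Itgb7 are green in none.

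The genes called in all 9 lists were Itgav, Itga4, Itgb1, Itgb3 and Lama4. Itgb1 encodes the beta chain with the most alpha partners, Itgav and Itgb3 together encode the vitronectin receptor, Itga4 encodes a receptor chain for fibronectin and VCAM1, and Lama4 encodes the alpha chain of laminins of vessels and other mesenchymal basement membranes. To show what sequence lies under such a call, RefSeq promoters of 3 of these genes are printed with that of Itgam, a leukocyte chain called in no list. Each line holds the 250 bases before the RefSeq start in GRCm38.p6, 5′ to 3′ on the strand of the gene. Capitals mark the letters searched on both strands, CACATG (the MITF E-box), CTTTGA (TCF/LEF), TGANTCA (AP-1), GGAATG (TEAD), ACAAAG (SOX) and GGGCGG (SP/KLF), and none of the matches shown overlaps another.
Itga4 (chr2:79255176-79255425, plus strand): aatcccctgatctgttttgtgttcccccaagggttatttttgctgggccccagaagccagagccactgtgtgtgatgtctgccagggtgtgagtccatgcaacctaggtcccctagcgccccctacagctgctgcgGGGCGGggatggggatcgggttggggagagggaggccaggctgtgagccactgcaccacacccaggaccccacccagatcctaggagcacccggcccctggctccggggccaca
Itgav (chr2:83724147-83724396, plus strand): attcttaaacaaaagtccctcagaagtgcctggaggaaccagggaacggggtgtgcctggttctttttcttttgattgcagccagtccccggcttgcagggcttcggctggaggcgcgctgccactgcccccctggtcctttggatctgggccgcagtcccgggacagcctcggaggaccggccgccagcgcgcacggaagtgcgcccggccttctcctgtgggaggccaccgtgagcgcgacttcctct
Itgb1 (chr8:128685404-128685653, plus strand): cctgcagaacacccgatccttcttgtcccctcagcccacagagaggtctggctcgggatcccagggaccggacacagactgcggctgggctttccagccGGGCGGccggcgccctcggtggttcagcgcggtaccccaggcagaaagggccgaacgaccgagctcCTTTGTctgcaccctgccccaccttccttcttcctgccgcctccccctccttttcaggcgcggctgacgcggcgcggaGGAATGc
Itgam (chr7:128062390-128062639, plus strand): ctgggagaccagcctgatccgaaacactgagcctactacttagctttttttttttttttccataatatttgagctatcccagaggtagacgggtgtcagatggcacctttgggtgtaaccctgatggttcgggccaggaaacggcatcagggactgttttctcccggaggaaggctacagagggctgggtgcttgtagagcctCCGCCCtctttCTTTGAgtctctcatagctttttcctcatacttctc

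Counted over 300 bases, with the 50 bases after the start that are not printed, GGGCGG occurred in each of these promoters and in 48.0% of 16522 coding promoters of that length. The match of Itgav lay in the unprinted bases. Over the same length the promoters of Itga4, Itgav and Itgb1 held 10, 24 and 27 CpG dinucleotides, and that of Itgam held 6. RefSeq promoter sequences were held for 23 of the 37 genes. Among these, the 12 whose start had no peak within 1 kb in any list had a median of 6 CpG (1 to 24), and the 8 called at that start in some lists a median of 15.5 (4 to 24). The corresponding medians over coding genes were 4 and 21, with 23 for promoters called in all lists, so the order was that of promoters in general. Itga3, which encodes a laminin receptor chain of epithelia, was called in no list although its stretch held 24 CpG and 3 GGGCGG matches. The Itga3, Itga2 and Itga11 stretches, all uncalled, held 24, 13 and 16 CpG, within the range of called integrin promoters.

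The median fold enrichment of the strongest promoter peak over the 9 lists was highest at Itga4 (44.2), followed by Lama4 (26.6) and Itgb1 (25.5). The order varied between lists. In Ma_1456 the promoter peaks of Itgb1 (26.1) and Itga5 (25.9) exceeded those of Itga4 and Lama4, and in Ma_1064 that of Itga8 (22.2) did. The Itga5 and Itga8 values belong to non-coding starts 10.1 and 59.5 kb inside these genes, not to their first starts. At Itga4 the fold over local background was 51.3 in Ma_1007, 118 in Ma_1181, 51.3 in Ma_1014 and 48.9 in Ma_1039, the 4 Ecad lines. In the male ΔEcad lines it was 44.2 in Ma_1062 and 4.33 in Ma_1456, and in the female ΔEcad lines 11.3, 14.6 and 10.1 in Ma_1057, Ma_1064 and Ma_1069. All 5 ΔEcad values thus lay below all 4 Ecad values, with Ma_1062 close to them and Ma_1456 lowest. Among the 4622 coding genes called in all 9 lists, 27.6% had all ΔEcad folds below all Ecad folds. The Itga4 peak was a broad domain, 17027 to 24982 bp wide in the Ecad lines and in Ma_1062 and Ma_1064 (17999 and 23355 bp), but 1619 bp in Ma_1456, 7124 bp in Ma_1057 and 5000 bp in Ma_1069. Ranked by −log10 q within its own list, the Itga4 peak stood at the 97.3rd percentile or higher in the Ecad lines and in Ma_1062, and at the 13.4th percentile in Ma_1456.

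Lama4 promoter peaks were 5318 to 7551 bp wide and stood at the 90.2nd percentile or higher in every list, with folds of 12.7 (Ma_1456) to 62.1 (Ma_1181). Itgb1 peaks had folds of 37.2, 51.2, 27.4 and 25.5 in the Ecad lines and 23.1 and 26.1 in the male ΔEcad lines. The 3 female ΔEcad lines had 9.23, 8.45 and 8.20, below all 6 others, and their within-list percentiles of 82.4, 76.8 and 83.2 were also below the 89.3 to 97.2 of the others. Itgav folds ran from 9.50 (Ma_1069) to 34.9 (Ma_1181), with the 3 female ΔEcad lines lowest and all 5 ΔEcad lines below all 4 Ecad lines. Of the 4622 genes, 44.1% had their 3 lowest folds in the female ΔEcad lists, and 18% had their 3 lowest percentiles there. Fold enrichment is set by each library as well as by the locus, so these values describe lists and were not tested. Itgb3 was called in all 9 lists through a start 29.4 kb inside the gene. At its first start, the one of the coding transcript, it was called in 7 lists, all but those of Ma_1057 and Ma_1069.

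**Figure D2:**
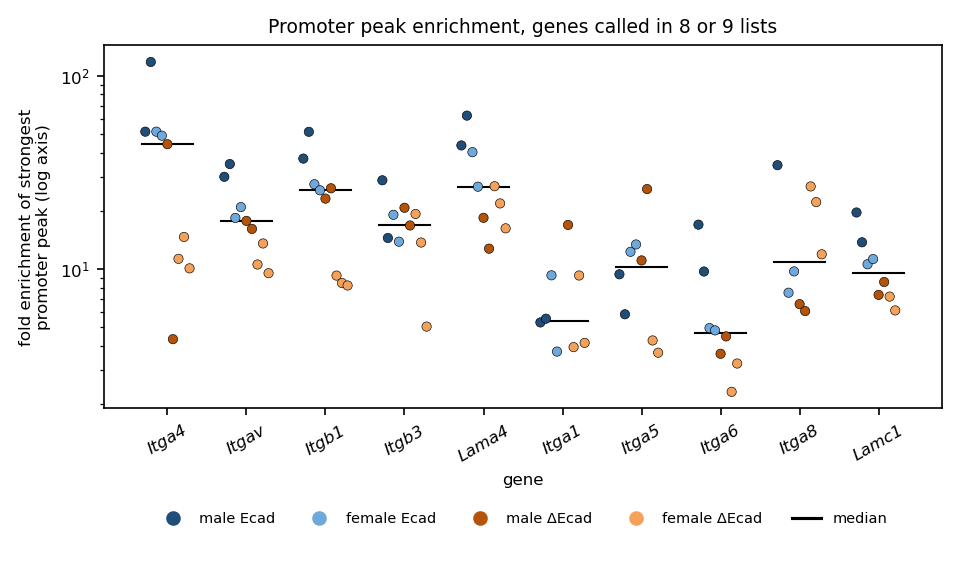
Fold enrichment over local background (log axis) of the strongest promoter peak of the 10 genes called in 8 or 9 lists, with 1 point per list coloured by group and the median as a bar. Female ΔEcad points are the lowest at Itgb1 and Itgav, and the Itga4 points reach from 4.33 to 118.

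Of the 13 genes called in some lists, 5 were called in 8. Itga6, which encodes the laminin receptor chain of basal epithelial cells, Itga5, a fibronectin receptor chain, and Lamc1, the gamma chain of most laminins, were called in every list except the shortest, Ma_1069. Itga6 peaks were weak, with folds of 16.9 (Ma_1007), 9.69 (Ma_1181), 4.94 (Ma_1014), 4.80 (Ma_1039), 3.64 (Ma_1062), 4.47 (Ma_1456), 2.31 (Ma_1057) and 3.24 (Ma_1064), and they lay 41.3 kb inside the annotated gene, at starts of coding transcripts. Itga5 peaks at the start of the gene had folds of 3.68 (Ma_1064) to 12.3 (Ma_1014) in all 8 lists. A further peak, over a non-coding start 10.1 kb inside the gene or just beside it, was the strongest by −log10 q in Ma_1007 (9.37), Ma_1039 (13.4) and Ma_1456 (25.9). Lamc1 folds ran from 6.10 (Ma_1064) to 19.6 (Ma_1007). Itga1, a collagen receptor chain, was called in all lists but Ma_1062, with widths of 266 to 2489 bp and percentiles of 2.66 to 82.8. The coding gene Gm49395 starts within 2 kb of the Itga1 start, so a call there cannot be assigned to either gene. Itga8, a chain that binds the RGD motif of matrix proteins, was called in all lists but Ma_1181, but through a start of a non-coding transcript 59.5 kb inside the gene; at its first start only Ma_1007 had a peak. That internal peak was stronger in Ma_1007 (fold 34.4), Ma_1057 (26.7), Ma_1064 (22.2) and Ma_1069 (11.9) than in Ma_1014, Ma_1039, Ma_1062 and Ma_1456 (6.05 to 9.70).

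The other 8 variable genes split the lists unevenly. Itgb5 and Itgb8, partners of Itgav, were each called in 4 lists, 2 of each genotype, and both in Ma_1007, Ma_1456 and Ma_1064. Itgb5 folds were 9.95 in Ma_1007, 7.20 in Ma_1181, 11.6 in Ma_1456 and 13.0 in Ma_1064. The Ma_1007 value belongs to its first start and the others to starts 62.3 kb inside the gene, and at the first start it was called only in Ma_1007 and Ma_1456. Itgb8 folds were 3.32 in Ma_1007, 9.62 in Ma_1039, 9.11 in Ma_1456 and 8.38 in Ma_1064. Itga9, the chain closest to Itga4 in kind, was called in Ma_1007 (fold 8.83), Ma_1014 (19.5) and Ma_1064 (2.70). Lama5, the alpha chain of mature epithelial basement membranes, was called only in Ma_1007 (fold 9.13, width 1134 bp). Lamb1, the usual beta chain, was called in Ma_1007 (4.74) and Ma_1069 (3.56). Lama1, the alpha chain of embryonic basement membranes, was called only in Ma_1069 (4.54, width 298 bp). Lamb3, a chain of the epidermal laminin, was called in Ma_1181, Ma_1014, Ma_1039, Ma_1062, Ma_1456 and Ma_1069 with folds of 4.40 to 21.4. Every Lamb3 call lay at a non-coding start 65.6 kb inside the annotated gene, within 2 kb of the start of G0s2, and no coding start of Lamb3 was called in any list.

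The 19 genes never called include all 5 leukocyte alpha chains and their partners Itgb2 and Itgb7, the platelet chain Itga2b, the epithelial chains Itga3, Itgb4 and Itgb6, and the muscle laminin receptor chain Itga7. They also include the collagen receptor chains Itga2, Itga10 and Itga11, and the laminin chains Lama2, Lama3 and Lamc3. Absence of a promoter call did not mean absence of peaks. Itga2 had at least 1 peak inside the gene in all 9 lists, covering 1.63 to 3.86 kb. In the leukocyte chains the only peaks were one in Itgae in Ma_1181 and another in Itgam in Ma_1062. The Itgae peak lay within 1 kb of a start of another gene, and Itgae overlaps the coding gene Haspin.

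The number of called integrin and laminin promoters was 16 in Ma_1007, 12 in Ma_1181, 13 in Ma_1014, 13 in Ma_1039, 10 in Ma_1062, 14 in Ma_1456, 10 in Ma_1057, 13 in Ma_1064 and 10 in Ma_1069. The Ecad mean was 13.5 ± 1.73 (SD, n = 4) and the ΔEcad mean 11.4 ± 1.95 (SD, n = 5), with overlapping ranges. These counts ran beside the counts over all coding genes. All coding promoters were called at 40.0% to 48.6% in Ecad lists, at 38.4% and 39.5% in male ΔEcad lists and at 25.3% to 33.3% in female ΔEcad lists. Integrin and laminin promoters were called at 32.4% to 43.2%, at 27.03% and 37.8%, and at 27.03% to 35.1% in the same groups. The share of integrin and laminin genes was below that of all coding genes in 7 lists. The difference reached −11.3 percentage points in Ma_1181 and in Ma_1062. The share was above that of coding genes in Ma_1064 and Ma_1069, by 1.80 and 1.72 points, less than the 2.70 points of 1 gene. With RefSeq gene starts, an alternative chosen after seeing the data, the shares were 29.7% beside 29.4% in Ma_1064 and 18.9% beside 21.7% in Ma_1069.

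**Figure D3:**
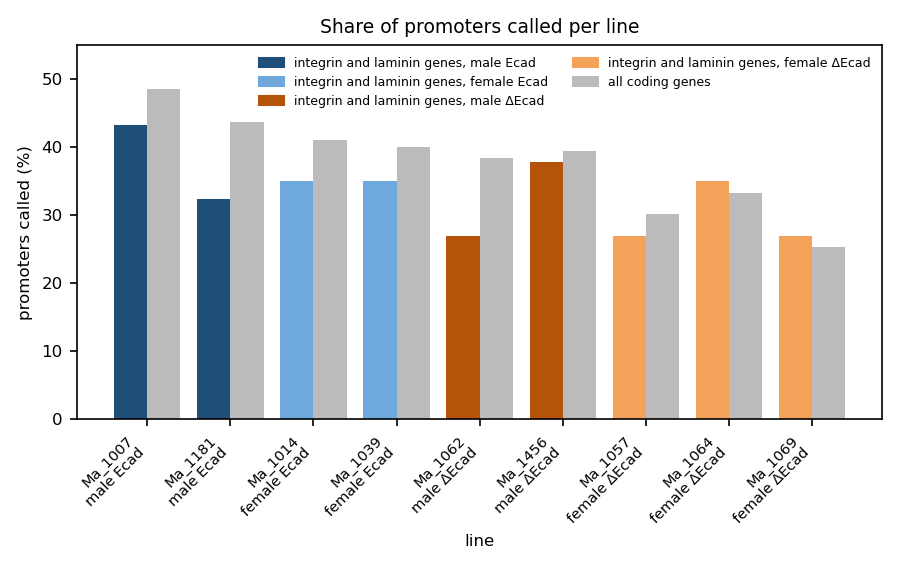
Percentage of promoters called in each list, for the 37 integrin and laminin genes (coloured by group) and for all 21951 coding genes (grey). The grey bars fall from 48.6% in Ma_1007 to 25.3% in Ma_1069, and the coloured bars stay between 27.03% and 43.2%.

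To ask which receptors a line could assemble from the marked genes, calls were combined into 24 known integrin pairs and 9 known laminin trimers, a combination being marked where each of its chains had a called promoter. Itga4 with Itgb1, Itgav with Itgb1 and Itgav with Itgb3 were marked in all 9 lists. Itgb1 with Itga1, Itga5, Itga6 or Itga8 was marked in 8 lists each, Itgav with Itgb5 or Itgb8 in 4, and Itgb1 with Itga9 in 3. The number of marked pairs ran from 5 in Ma_1069 to 10 in Ma_1007 and Ma_1064. The calls of Itga8 and Itgb3 at internal non-coding starts enter these numbers. With RefSeq gene starts, an alternative chosen after seeing the data, Itgav with Itgb3 was marked in 7 lists, Itgb1 with Itga8 in 1 and Itgav with Itgb5 in 2, and the number of pairs ran from 3 in Ma_1069 to 10 in Ma_1007. Itga6 with Itgb4, the hemidesmosome receptor, was marked in none. The trimer of Lama4, Lamb2 and Lamc1 was marked in all 4 Ecad lists and in Ma_1456 but in no female ΔEcad list. These are the lists that called Lamb2, because Lama4 was called in all 9 lists and Lamc1 in 8. The other marked trimers, of Lamc1 with Lama4 and Lamb1 or with Lama5 and either Lamb1 or Lamb2, occurred in Ma_1007 alone, and no trimer was marked in Ma_1062, Ma_1057, Ma_1064 or Ma_1069. A mark at each gene is not evidence of the assembled receptor.

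The genotype comparison asks which of these genes differ with loss of E-cadherin. Lamb2, which encodes the beta chain of laminins at nerve-muscle junctions, in the kidney filter and in vessels, had a called promoter in 4 of 4 Ecad and 1 of 5 ΔEcad lists (two-sided p = 0.0476 by Fisher's exact test, and 1 after adjustment over all coding genes). It was the only one of the 37 past an unadjusted 0.05, all coding genes being called lower in ΔEcad at that p in 2.98% of cases. Its peaks had folds of 7.58 in Ma_1007, 9.29 in Ma_1181, 4.28 in Ma_1014, 4.30 in Ma_1039 and 5.72 in Ma_1456. They were 297 to 738 bp wide and had their summits at −891 to −821 bp from the nearest start, close to the edge of the window. A window of 2 kb gave a call in all 9 lists (exact p = 1), but it also reached a peak of all 9 lists at the far end of Lamb2, beside the start of the coding gene Usp19, and so does not bear on the upstream peak. With peaks of at least 500 bp the difference was −55 points (exact p = 0.206), and in lists trimmed to equal length −30 points (exact p = 0.524).

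The length of each gene under peaks, counted over the gene and 1 kb upstream, was shorter in ΔEcad lists at 5 of the 37 genes (13.5%) by an unadjusted exact permutation test, beside 9.87% of all coding genes. None was longer, beside 0.1% of coding genes. No gene passed after adjustment over all coding genes, for which the smallest adjusted p was 0.348. Itgb4, the beta chain of hemidesmosomes, had 0.965, 1.30, 1.66 and 1.43 kb under peaks in Ma_1007, Ma_1181, Ma_1014 and Ma_1039 and 0 kb in all 5 ΔEcad lists. The groups did not overlap (exact permutation p = 0.00794, the smallest that 126 splits allow, adjusted p = 0.348), which held for 3.84% of all coding genes in that direction. The exact permutation p stayed under 0.05 in lists trimmed to equal length, as a share of each list and without any 1 list. The full separation did not survive trimming, which kept the 20741 peaks of each list with the highest −log10 q. The Ma_1007 peak stood at the 38.0th percentile of 41663 peaks and was cut, which put Ma_1007 at 0 kb beside the ΔEcad lists.

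Itga4 was covered over 28.0, 38.9, 18.7 and 27.3 kb in the Ecad lists, 18.2 and 2.81 kb in the male ΔEcad lists and 8.95, 22.9 and 11.9 kb in the female ΔEcad lists. The means were 28.2 ± 8.30 kb (SD, n = 4) and 12.9 ± 7.84 kb (SD, n = 5), and only Ma_1064 reached into the Ecad range (exact permutation p = 0.0317, adjusted p = 0.456). Itga4 overlaps the coding gene Cerkl, so part of this length may be shared. Lamc1 was covered over 18.2 ± 3.49 kb (SD, n = 4) in Ecad and 10.7 ± 4.34 kb (SD, n = 5) in ΔEcad lists (exact permutation p = 0.0317, adjusted p = 0.456). Lama2, the alpha chain of muscle and nerve basement membranes, was covered over 6.87 ± 3.47 kb (SD, n = 4) against 1.63 ± 2.03 kb (SD, n = 5) at the same exact permutation p of 0.0317. Lamb2 was covered over 1.04 ± 0.320 kb (SD, n = 4) against 0.188 ± 0.300 kb (SD, n = 5; exact permutation p = 0.0238, adjusted p = 0.435). Part of this length was the edge of the peak beside Usp19. That edge gave 0.394, 0.504, 0.359 and 0.358 kb in Ma_1007, Ma_1181, Ma_1014 and Ma_1039. In Ma_1062 and Ma_1456 it gave 0.251 and 0.237 kb. The Ecad lists were longer in total, and as a share of each list's covered length the difference no longer passed at Itga4 (exact p = 0.190), Lamc1 (exact p = 0.143) or Lama2 (exact p = 0.0794), but did at Lamb2 and Itgb4.

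**Figure D4:**
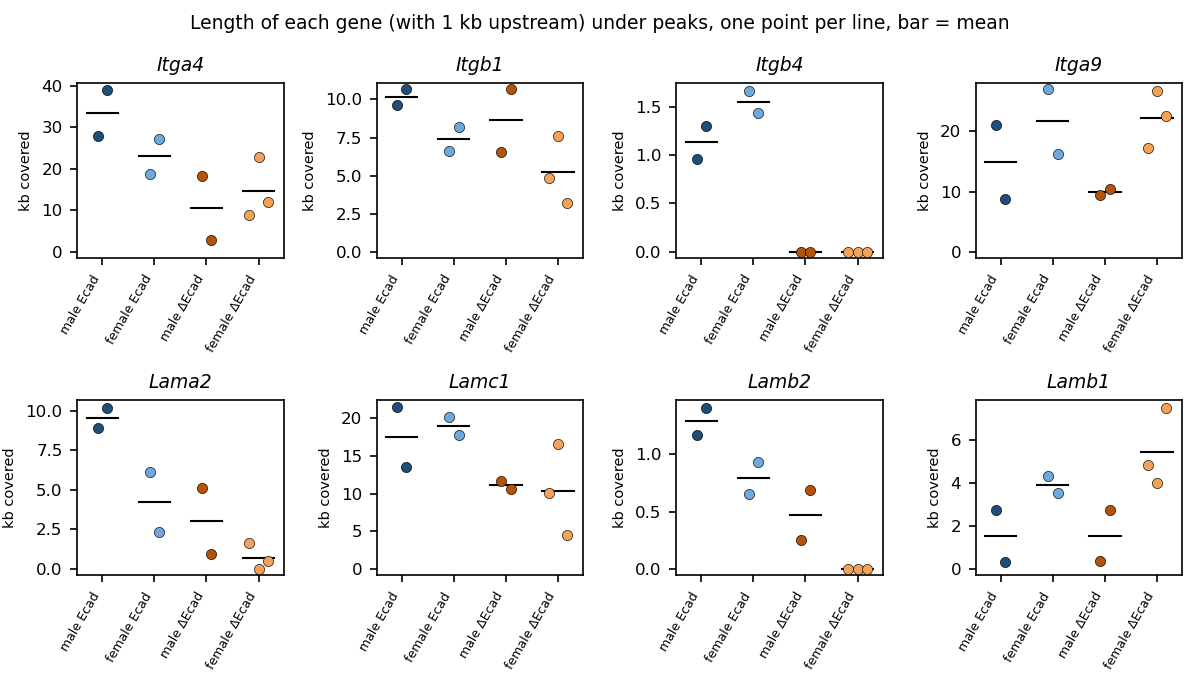
Length under peaks in kb (gene and 1 kb upstream) of 8 integrin and laminin genes, with 1 point per list, lists grouped by sex and genotype, and the group mean as a bar. Itgb4 is at 0 in all 5 ΔEcad lists, Lamb2 is at 0 in the 3 female ΔEcad lists, and Lamb1 is higher in all 5 female than in all 4 male lists.

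Female ΔEcad lists were next compared with the other 6, a contrast of all groups with the one that combines female sex and loss of E-cadherin. Lamb2 had a called promoter in 5 of the 6 and in 0 of the 3 female ΔEcad lists (exact p = 0.0476 by Fisher's test, adjusted p = 1), where 4.36% of all coding genes were called lower at that p. It was the only gene of the 37. Its covered length was 0 kb in Ma_1057, Ma_1064 and Ma_1069 and 0.251 to 1.40 kb elsewhere, so the groups did not overlap, as at 12.4% of coding genes (exact permutation p = 0.0238, adjusted p = 0.215). The 0.251 kb, in Ma_1062, was the edge of the peak beside Usp19. With that peak left out, a setting chosen after seeing the data, Lamb2 stood at 0 kb in Ma_1062 as well, the groups overlapped and the difference no longer passed (exact permutation p = 0.0714), whereas by genotype it did (exact permutation p = 0.0238). Covered length was shorter at 3 genes (14.8% of coding genes were), namely Lamb2, Itgb1 and Lama2. Itgb1 had 4.85, 7.62 and 3.17 kb in the female ΔEcad lists and 6.56 to 10.7 kb in the others (exact permutation p = 0.0476, adjusted p = 0.304), and as a share of the list the difference no longer passed (exact p = 0.238). Lama2 had 1.62, 0 and 0.481 kb against 0.966 to 10.2 kb (exact permutation p = 0.0476, adjusted p = 0.304).

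Lamb1 moved the other way. It was covered over 4.84, 4.02 and 7.50 kb in Ma_1057, Ma_1064 and Ma_1069 and over 2.34 ± 1.65 kb (SD, n = 6) in the others, with Ma_1014 at 4.32 kb inside the female ΔEcad range (exact permutation p = 0.0476, adjusted p = 0.304). A longer coverage in female ΔEcad lists at that p was seen at 0.888% of coding genes. Lamb1 also separated the sexes. All 5 female lists (3.54 to 7.50 kb) lay above all 4 male lists (0.323 to 2.76 kb), a pattern of 0.0957% of coding genes (exact permutation p = 0.00794, adjusted p = 0.410), and the call stayed under 0.05 without any 1 list. In the same comparison Itga9 was covered over 22.0 ± 5.10 kb (SD, n = 5) in female and 12.4 ± 5.83 kb (SD, n = 4) in male lists (exact permutation p = 0.0476, adjusted p = 0.573), a difference seen in that direction at 0.232% of coding genes. None of the 37 was covered over less in female lists at that p, beside 8.07% of coding genes. The Ma_1007 list (21.0 kb) overlapped the female range. No promoter call of the 37 differed by sex, where 1.63% of coding genes passed an unadjusted Fisher's exact p of 0.05 in either direction and no gene an adjusted one.

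Within each sex the groups of 2 and 3 lists are too small to pass 0.05, since the smallest exact p is 0.1 in females and 0.333 in males. In females, coverage of Itga5, Itgb4, Itgb6, Lama2, Lamb2 and Lamc1 was lower in all 3 ΔEcad than in both Ecad lists, 16.2% of the 37 genes beside 24.8% of coding genes. In males the same pattern held at Itga4, Itgb4, Lama2, Lamb2 and Lamc1, 13.5% beside 16.9%. The opposite pattern, every ΔEcad list above every Ecad list, was seen at Lama5 in females and at Itga2 in males, beside 3.2% and 3.63% of coding genes. Itgb4, Lama2, Lamb2 and Lamc1 had the lower pattern in both sexes. The share of coding genes with it in both sexes was not counted, and in each sex the share of the 37 was below that of coding genes. The Lama2 ranges were 0 to 1.62 kb against 2.32 to 6.13 kb in females and 0.966 to 5.11 kb against 8.88 to 10.2 kb in males. The Itga4 ranges overlapped in females.

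Peaks of the 9 lists were merged into regions to see which stretches carry these differences. Integrin and laminin genes held 186 of the 38133 regions in coding genes, and 155 of the 186 had no annotated start of any gene within 1 kb. Of the 186, 25 were found in all 9 lists (13.4% beside 16.9% of regions in coding genes) and 73 in a single list (39.2% beside 30.6%). Itga9 held the most regions, 24, followed by Itga4 with 18. A region in all 4 Ecad and no ΔEcad list was found at 1 gene, Itgb4, and such regions were 0.587% of regions in coding genes. It lay 30.3 kb into the gene near its far end, spanned chr11:116004127-116005926 and overlapped exons. Its folds were 5.16 in Ma_1007, 8.98 in Ma_1181, 18.8 in Ma_1014 and 11.2 in Ma_1039, at percentiles of 38.0 to 81.2 of each list. No region of these genes was found in all 5 ΔEcad and no Ecad list, a pattern of 0.00524% of regions in coding genes.

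Regions in all 3 female ΔEcad lists and in no other were found in Itga9 alone, as 2 of its 24 regions, where 0.404% of regions in coding genes had this pattern. They spanned chr9:118730621-118732289 and chr9:118800931-118802374, 125 and 195 kb into introns of the gene. In the first, folds were 9.42 in Ma_1057, 14.0 in Ma_1064 and 6.70 in Ma_1069, and in the second 9.24, 6.52 and 11.2. Other Itga9 regions were widely shared, 4 of the 24 being found in all 9 lists.

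The stretches at the strongest summits of these regions, and of the peak upstream of Lamb2, are printed because they carry the differences between groups. Each holds 300 bases of GRCm38.p6 centred on the summit of the list with the highest fold, on the strand of the gene, and capitals mark matches to the same 6 sets of letters as above.
Lamb2, upstream (chr9:108478719-108479018, plus strand): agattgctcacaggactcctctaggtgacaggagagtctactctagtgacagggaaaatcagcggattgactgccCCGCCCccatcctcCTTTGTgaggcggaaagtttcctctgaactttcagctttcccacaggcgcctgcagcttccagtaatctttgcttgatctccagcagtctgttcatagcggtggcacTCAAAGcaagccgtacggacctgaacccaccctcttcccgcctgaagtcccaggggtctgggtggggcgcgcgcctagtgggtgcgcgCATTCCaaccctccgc
Itgb4, gene body (chr11:116005186-116005485, plus strand): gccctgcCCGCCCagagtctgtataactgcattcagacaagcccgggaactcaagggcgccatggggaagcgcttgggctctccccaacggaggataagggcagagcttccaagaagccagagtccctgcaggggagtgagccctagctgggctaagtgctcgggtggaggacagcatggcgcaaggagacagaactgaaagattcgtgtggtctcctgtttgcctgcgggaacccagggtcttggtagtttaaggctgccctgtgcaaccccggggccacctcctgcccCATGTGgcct
Itga9, first intronic region (chr9:118730728-118731027, plus strand): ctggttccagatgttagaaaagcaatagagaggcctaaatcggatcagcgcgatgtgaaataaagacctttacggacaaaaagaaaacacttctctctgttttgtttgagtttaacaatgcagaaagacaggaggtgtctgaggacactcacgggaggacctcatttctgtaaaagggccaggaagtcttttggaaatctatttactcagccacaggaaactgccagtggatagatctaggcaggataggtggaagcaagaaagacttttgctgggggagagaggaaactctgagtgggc
Itga9, second intronic region (chr9:118801191-118801490, plus strand): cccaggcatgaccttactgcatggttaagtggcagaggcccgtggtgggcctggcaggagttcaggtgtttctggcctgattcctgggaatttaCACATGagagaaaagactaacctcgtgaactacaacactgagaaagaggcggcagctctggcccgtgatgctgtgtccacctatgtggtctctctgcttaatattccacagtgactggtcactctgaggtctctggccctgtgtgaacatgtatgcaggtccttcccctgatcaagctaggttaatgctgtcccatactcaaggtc

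The Itgb4 stretch and the second Itga9 stretch each held a CACATG, which occurred in 21.7% of 59649 regions of the lists at this length. Shares of regions were counted at the middle of each merged region, whereas the printed stretches are centred on summits. The Itgb4 stretch also held GGGCGG, found in 11.4% of regions. The Lamb2 stretch held the GGGCGG letters as well, and those given above for TCF/LEF, TEAD and SOX, found in 22.9%, 15.5% and 29.7% of regions. The first Itga9 stretch held none of the 6. None of the 4 printed stretches overlapped an annotated exon.

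**Figure D5:**
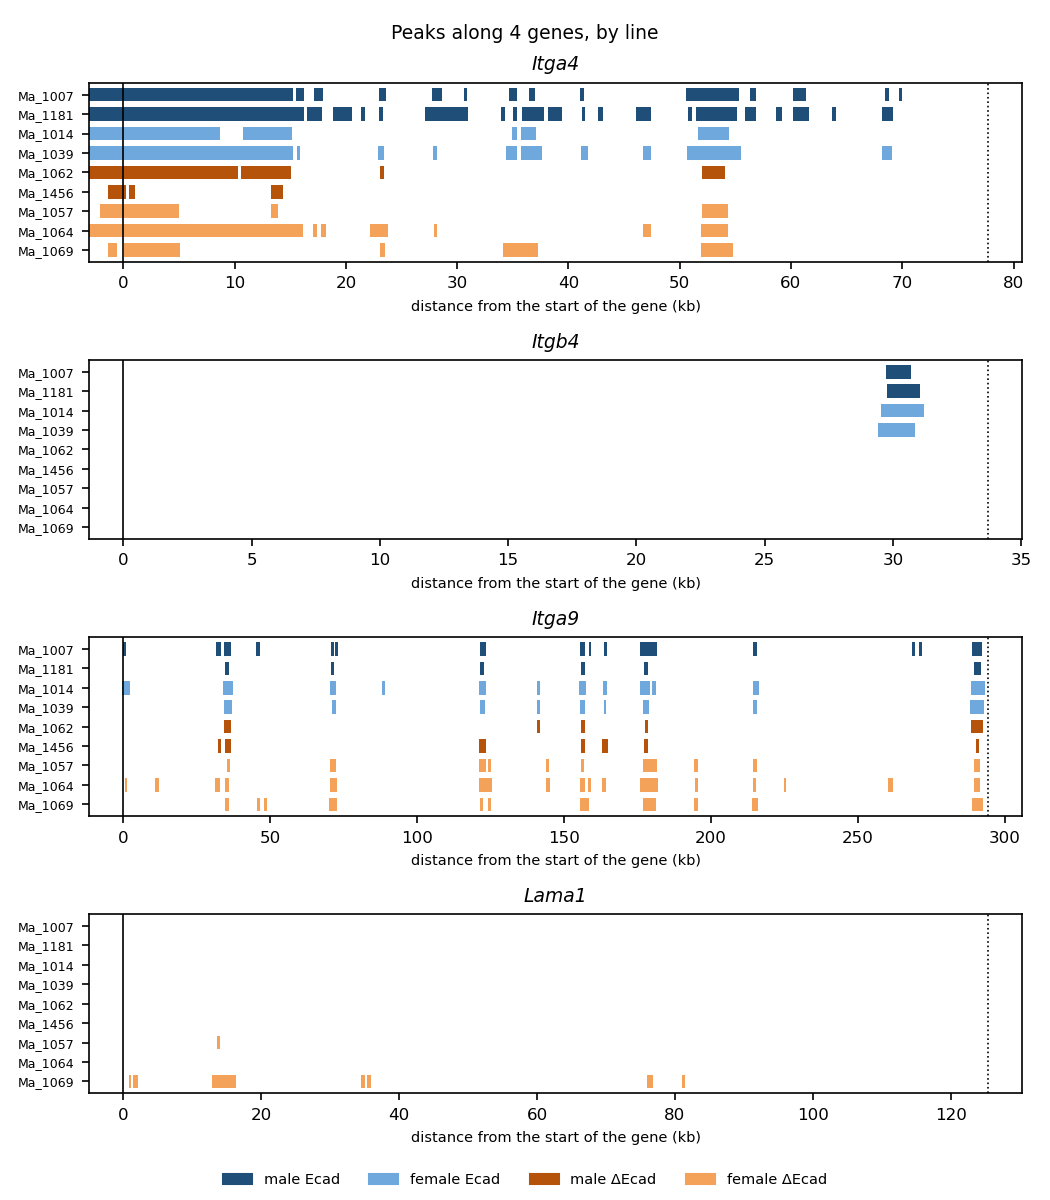
Peaks along Itga4, Itgb4, Itga9 and Lama1 in each of the 9 lists (rows, coloured by group), as distance in kb from the annotated start of the gene (solid line) to its end (dotted line). The Itgb4 peak is present only in the 4 Ecad rows, and the Lama1 peaks only in Ma_1069 and, for 1 of them, Ma_1057.

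Lama1 was marked in female ΔEcad lines only, and mostly in 1. Of its 7 regions, 6 were found in Ma_1069 alone and the other, 14.6 kb into the gene, in Ma_1069 and Ma_1057. Peaks covered 7.11 kb of Lama1 in Ma_1069 and 0.445 kb in Ma_1057, and 0 kb in the other 7 lists. At Lamb1, 3 of 7 regions were found in Ma_1069 alone, 1 in Ma_1057 and Ma_1069, and 1, 45.5 kb into the gene, in all 9 lists. The remaining Lamb1 region away from the start, 7.06 kb into the gene, was found in all 5 female lists and in Ma_1007 and Ma_1456. Within males, 12 regions were found in both Ecad and neither ΔEcad list, of which 7 lay in Itga4 between 17.3 and 68.7 kb from its start; 4.79% of regions in coding genes had that pattern against 6.45% here. The opposite pattern in males was seen at 0 of the 186 regions, beside 0.915%. Within females, 6 regions were found in both Ecad and no ΔEcad list (3.23% beside 8.67%), 1 each in Itga9, Itgb4, Itgb6, Lama2, Lamb2 and Lamc1. The converse held at 4 regions (2.15% beside 2.2%), of which 1 lay in Lama4, 29.1 kb into the gene, 1 in Itgb5, 48.9 kb into it, and the others were the Itga9 regions printed above.

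The partners of these receptors were read from lists of pathway genes. By unadjusted exact permutation tests, covered length was lower in ΔEcad lists at 5 of 28 cytoplasmic adhesion proteins, 0 of 13 membrane partners and 3 of 18 ligands and basement membrane components, and lower in female ΔEcad lists at 7, 0 and 2 of them. None of these was higher, none passed after adjustment, and the shares of all coding genes were the 9.87% and 14.8% given above. Over all coding genes, 21.1% had a called promoter in all 9 lists and 47.1% in none. Of the 28 cytoplasmic adhesion proteins, 13 had a called promoter in all 9 lists and 5 in none, namely Tln2, Fermt1, Fermt3, Parvg and Lims2. The 10 called in some lists were Vcl, Ilk, Parva, Parvb, Actn1, Flna, Tns1, Tns3, Ptk2b and Nedd9, and no promoter of the 28 passed an unadjusted exact p of 0.05 by genotype or in female ΔEcad lists. Of 13 membrane partners, 5 were called in all 9 lists, 2 (Cd82 and Bcam) in none, and Cd9, Bsg, Cav1, Sdc1, Sdc4 and Dag1 in some. Cav1, which encodes the coat protein of caveolae, was called in 0 of 5 female and 3 of 4 male lists (Fisher's exact p = 0.0476, adjusted p = 1), and 1.6% of coding genes were lower in females at that p.

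Of 18 ligands and basement membrane components, 1 was called in all 9 lists and 8 in none, beside 21.1% and 47.1% of coding genes. Nid1, Hspg2, Agrn, Fn1, Spp1, Thbs1, Fbln1, Edil3 and Mfge8 were called in some. Hspg2, which encodes perlecan, the heparan sulfate proteoglycan that binds laminin sheets, was called in 4 of 4 Ecad and 0 of 5 ΔEcad lists (Fisher's exact p = 0.00794, adjusted p = 1). This full separation held for 0.615% of coding genes. Peaks covered 12.7 ± 6.75 kb of Hspg2 (SD, n = 4) in Ecad and 1.89 ± 1.36 kb (SD, n = 5) in ΔEcad lists (exact permutation p = 0.0159, adjusted p = 0.411). Agrn, which encodes the laminin-binding proteoglycan agrin, had a called promoter in all lists but the 3 female ΔEcad ones (0 of 3 against 6 of 6, Fisher's exact p = 0.0119, adjusted p = 0.487), as were 2.43% of coding genes. Fn1, the gene of fibronectin, the ligand of Itga5 with Itgb1, had 0 of 3 calls there against 4 of 6 elsewhere (Fisher's exact p = 0.167).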

How the data were processed

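H3K27ac ChIP-seq peak lists of 9 mouse melanoma cell lines, 1 per line, were analysed and 4 input libraries were not analysed here. The authors aligned reads to GRCm38 (mm10) on the European Galaxy server, and the submitters' processing notes name Bowtie2 2.4.5, MACS2 2.2.7.1 and deepTools 3.5.1.0.0. Caller settings and the input used for each list are not given in the sources used here. Each deposited peak has a score, a fold enrichment (a linear ratio over local background), −log10 of the p-value and −log10 of the q-value made by the authors' caller, with a summit offset in bp. No deposited peak had a −log10 q under 5. A list holds no read counts, so depth is unknown, no counting interval can be given, and a missing peak is not an absent mark.

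Starts and genes came from GENCODE release M21 on the same build. A promoter was called by a peak within 1 kb of any transcript start, and covered length was kb of the gene and 1 kb upstream under peaks. Calls were compared by Fisher's exact test and lengths by the exact permutation test of the difference between means, both two-sided, over 21951 coding genes with Benjamini-Hochberg adjustment over all of them. The smallest p is 0.00794 for 5 against 4 lists and 0.0119 for 3 against 6, so an adjusted p of 0.05 needs at least 3485 or 5227 genes at that value. Python 3.11.15, numpy 2.4.6, pandas 2.3.3 and scipy 1.17.1 were used, and both tests were run on simulated data. That simulation drew all lists from the same rates and lengths, with fewer changed genes than an adjusted p of 0.05 needs. It therefore does not bear on lists of unequal length or on adjusted values. All genes of the rule were counted. Those named by rule were the genes called in 1 to 8 lists, the 6 with the largest mean covered length (Lama4, Itga4, Itga9, Lamc1, Itgav and Itgb3), genes past an unadjusted 0.05, and regions separating the genotypes or female ΔEcad lists from the rest, with values per line or their range. Pathway genes called in 1 to 8 lists were named, most without values. Itgb1, Lama1 and the other values of single genes in the text were chosen after their values were seen. Members, gene lists and tests were chosen with earlier results of these data known. Sex and genotype were taken from the sample titles, which name no batch. Each line is 1 sample, and p-values measure only the spread between these lines. Sequences were read from the RefSeq promoter table and the RefSeq genome of GRCm38.p6. The promoter table held no entry for Itga6, Itga7, Itgad, Itgae, Itgal, Itgb2, Itgb3, Itgb4, Lama1, Lama3, Lama4, Lamc1 and Lamc3, among others. Values of 1 gene of the 37 are not reported here.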

Additional observations from a re-analysis of the deposited data

Results flagged for a closer look

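Over 44 groups of 4 or 5 lists, 3 had a list far from the others. The cut-offs used flag about 1 in 20 groups of independent, normally distributed values. Covered lengths are often 0 and the total includes the single genes, so the rate by chance is not known here. Ma_1007 had 239 kb of integrin and laminin genes under peaks, against 146 to 157 kb in the other Ecad lists, and it was also the longest list. Ma_1456 had 15.7 kb of Itga1 under peaks, against 1.03 to 2.78 kb in the other ΔEcad lists. Ma_1069 had 7.11 kb of Lama1 under peaks, against 0 to 0.445 kb in the other ΔEcad lists. The part of list length in these values was not tested. None of 22 measures moved with genotype in opposite directions in every female and every male list.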

How the results depend on the processing

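No single gene reversed under any alternative. Of 190 recomputed values of single genes, 83 kept their side of 0.05 and 107 did not. Of 240 counts and means over the 37 genes, 186 moved little. The 240 include counts of genes past an adjusted p, which the smallest possible p all but holds at 0. The 186 therefore overstate how little the other counts and means moved. The 1 promoter call by genotype became 0 with lists trimmed to equal length, the stronger peaks of each list (above its median −log10 q), peaks of at least 500 bp, a 2 kb window or a window mostly under peaks. The 5 shorter genes by genotype became 2 at equal length, 3 with the stronger peaks and 2 as a share of the list. The 1 promoter call in female ΔEcad lists became 0 at equal length, with peaks of at least 500 bp, with windows of 500 bp or 2 kb and with the window mostly under peaks, and the 4 genes by covered length became 2 at equal length and 1 with the stronger peaks. By sex, equal length gave 1 promoter call, Lamb2, in place of 0, and 4 genes by covered length in place of 2. Shares of all coding genes under these settings are not printed here. These counts therefore do not show whether the 37 genes moved with or against coding genes in general. The 2 kb window also reached a peak of all 9 lists beside Usp19, and the other causes were not tested. Leaving out 1 list at a time gave 0 to 1 promoter calls and 1 to 4 genes by genotype, 0 to 1 and 0 to 2 in female ΔEcad lists, and 0 and 1 to 3 by sex, with 0 adjusted calls throughout. The difference in called promoters per line ranged from −2.75 to −1.27 by genotype, from −3 to −1.4 for female ΔEcad lists and from −2.2 to −0.2 by sex. Only Itgb4 by genotype and Lamb1 by sex stayed under 0.05 in all 9 leave-outs, where fewer lists also raise the smallest p. Lamb2 lost its promoter call in 8 leave-outs in each comparison and its covered-length call in 5. By genotype Itga4 and Lamc1 lost theirs in 7 and Lama2 in 6, in female ΔEcad lists Itgb1 and Lamb1 in 8 and Lama2 in 9, and by sex Itga9 in 8. Starts taken from RefSeq, an alternative chosen after seeing the data, left Lamb3 called in 0 lists, Itga8 in 1, Itgb5 in 2 and Itgb3 in 7. No paired analysis was possible because the replicate numbers follow accession order and pair no lines. Depth is unknown, so calls missing from shorter lists cannot be told apart from a lack of the mark.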
